A study of Mus musculus with 6 samples.

Results

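Cpa3, Srgn and Serpinb1a encode a protease of the mast cell granule, the proteoglycan core that holds such proteases there, and an inhibitor of granule serine proteases. They were described as 3 of the 17909 genes of an RNA-seq table, taken by symbol, in all 6 of its libraries. All 3 were found, and none was listed at 0 in any library. All embryos were C57BL/6xFVB mice, and cells were sorted by fate mapping with Csf1r-iCre, a Cre recombinase driven by the promoter of the macrophage colony-stimulating factor receptor gene, so every library holds cells of a lineage with a history of Csf1r promoter activity. Fetal liver gave 3 libraries at E11.5, labelled as erythro-myeloid progenitors (EMPs), mast cell progenitors (MCPs) and macrophages (MAC). The limb gave an E11.5 and an E14.5 library of MCPs. The skin sample, of E16.5, carries the name MCPs in its title and mast cells in its description. No drug treatment is labelled, the sort gates are named only by short codes, and the number of embryos behind a library is not given in the sources used here. Every group held 1 library, so there was no replicate spread, and no test or p-value could be computed. A counting interval below covers counting error alone and says nothing of the spread between embryos.

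Mast cells store their proteases in granules, packed against the negatively charged heparin or chondroitin sulfate chains of serglycin, the product of Srgn. Carboxypeptidase A3, made from Cpa3, is a zinc exopeptidase that removes aromatic and other hydrophobic residues from the carboxyl end of peptides, and its storage in mast cells depends on serglycin and on heparin. Serpinb1a, an orthologue of the human leukocyte elastase inhibitor, is a cytosolic and granule-associated serpin that inhibits neutrophil elastase, cathepsin G, proteinase 3 and chymase. Serglycin is made by most blood cells, and Serpinb1a by neutrophils as well as by mast cells. In pooled RNA, fewer cells of a type and less RNA per cell cannot be told apart.

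On GRCm38, Cpa3 lies on chromosome 3 at 20215620 to 20242181, Srgn on chromosome 10 at 62493833 to 62527451 and Serpinb1a on chromosome 13 at 32842092 to 32851185, all on the minus strand. Their main annotated transcripts have 11, 3 and 7 exons and are 1449, 938 and 1918 bases long. The feature that makes serglycin a carrier is a run of alternating serine and glycine codons, where the serines are the attachment points of the sugar chains. In the Srgn reading frame of 152 codons this run holds 10 serine-glycine pairs, at codons 90 to 109, and these are all the serine-glycine pairs of the frame. It lies inside exon 3, at chr10:62494998-62495057 of GRCm38 on the minus strand, and is printed with the serine codons in capitals.
Srgn repeat: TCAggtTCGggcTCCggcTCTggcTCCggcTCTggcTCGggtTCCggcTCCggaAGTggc

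Promoter windows of 250 bases before the annotated start were looked up in RefSeq for GRCm38.p6. Cpa3 has a window there and Srgn has windows at each of 2 starts. Serpinb1a was not matched. The Cpa3 window, chr3:20242182-20242431, and that of the distal Srgn start, chr10:62527446-62527695, both on the minus strand, are printed because these genes had their highest levels in the same library. Capitals mark matches to the GATA core GATAA, the E-box CAGCTG, and the TATA box sequence TATAAA, each at any place and on either strand. No match was tested for function. The last 6 bases of the Srgn window lie within the GENCODE M21 transcript. These motifs were picked with the sequences in view.
Cpa3 promoter: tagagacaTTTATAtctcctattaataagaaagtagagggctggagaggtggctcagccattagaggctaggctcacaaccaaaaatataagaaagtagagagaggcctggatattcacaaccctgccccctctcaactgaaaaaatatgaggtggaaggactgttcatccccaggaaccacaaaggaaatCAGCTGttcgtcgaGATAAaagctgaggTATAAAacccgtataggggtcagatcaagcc
Srgn promoter: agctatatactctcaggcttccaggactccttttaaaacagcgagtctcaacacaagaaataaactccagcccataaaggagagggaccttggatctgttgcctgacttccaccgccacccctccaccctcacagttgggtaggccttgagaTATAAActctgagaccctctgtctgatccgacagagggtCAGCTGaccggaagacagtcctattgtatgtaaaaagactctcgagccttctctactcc
Both windows held CAGCTG, the E-box, at 59 to 54 bases before the start. Cpa3 also had GATAA, a core that GATA factors bind, at 45 to 41 bases before the start. It had the sequence TATAAA at 31 to 26 bases before the start and again on the other strand at 242 to 237 bases. Srgn had the sequence TATAAA at 98 to 93 bases and no GATA core. Of 32851 windows of this length, 22.6% held the GATA core, 13.0% the E-box and 12.4% the sequence TATAAA. The motif CACGTG, in 6.02% of windows, the motif CATGTG, in 12.3%, and the cyclic AMP response element TGACGTCA, in 1.55%, were also searched on both strands and were in neither window. The proximal Srgn window, which overlaps annotated transcribed sequence and is not printed, held none of the 6 motifs. The table does not say which start was used in these cells.

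Mapped fragments per library, estimated from the steps between FPKM values, lay between 8600000 and 12300000. FPKM counts fragments relative to transcript length and to all mapped fragments, so levels of different genes can be set side by side. The labels held in part against marker genes. Kit and Ms4a2, receptor genes of mast cells, were highest in the limb and skin MCP libraries (Kit 155 to 284 FPKM, Ms4a2 28.6 to 47.3), and Csf1r peaked in the MAC library at 34.1. The MAC library also carried eosinophil Prg2 at 5617 and neutrophil Mpo at 3621, and EMPs carried Mpo at 8174 and Elane at 1166, so it is called the macrophage-labelled library here. Erythroid markers (15 genes) summed to 383 in liver MCPs, against 88.8 in EMPs, 46.0 in the macrophage-labelled library and 74 in limb MCPs at E11.5. Of 8 past the filter 5 were called higher in liver MCPs than in EMPs, and of 8 again 4 lower in limb than in liver MCPs. Over all genes 1.78% and 2.04% were so called. The part of these markers in the comparisons drawn from that library was not tested. Removing them from the sums changed no call of the 3 genes but cannot test it, since they made up 383 of a sum of 153340 FPKM. The skin library stood apart, with an FPKM sum of 84036 against 140044 to 169289 elsewhere and 5675 genes at 1 FPKM or more against 8270 to 8754. A value of 0 was listed in skin for 26 of 1660 genes that had at least 10 FPKM everywhere else, so a 0 there is given only as listed.

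Cpa3 was the most variable of the 3 genes. It read 10.3 FPKM in the macrophage-labelled library, 13.6 in EMPs, 172 in liver MCPs, 417 in the younger and 1856 in the older limb MCPs, and 13494 in skin. The MCP libraries thus stood in the order liver, younger limb, older limb and skin, with both non-mast liver libraries at the bottom. Whether cells of a later library descend from those of an earlier one was not tested. Only the lowest neighbours were close. The counting interval was 8.76 to 11.9 FPKM in the macrophage-labelled library (167 estimated fragments) and 11.9 to 15.4 in EMPs (242), which overlapped narrowly. Skin was 1315-fold above the macrophage-labelled library and 78.3-fold above liver MCPs as deposited. Over the 4 other scalings the first fold was 2521 to 3062 and the second 143 to 181. By FPKM Cpa3 held place 2253 in EMPs, place 124 in liver MCPs, 37 in limb MCPs at E11.5 and 1 in both later libraries. In limb MCPs at E14.5 it led Actb, the beta actin gene, by 1856 to 1853, and the counting interval of Cpa3 was 1835 to 1877. In skin the next gene, Calm2 for calmodulin, read 1218.

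Srgn was at 227 FPKM or more in every library. It read 411 FPKM in EMPs, 318 in the macrophage-labelled library, 227 in liver MCPs, 592 and 700 in the younger and older limb MCPs, and 1183 in skin. Liver MCPs were therefore the lowest and skin the highest, 5.21-fold apart as deposited, 9.51-fold under TPM and 12.01-fold under median-of-ratios scaling, and the 3 peripheral libraries all lay above the 3 liver libraries. Neighbours in this order differed by 1.18-fold to 1.69-fold. The counting intervals of neighbours did not overlap, as in liver MCPs (218 to 236) and the macrophage-labelled library (307 to 329), but with 1 library a group such steps have no replicate check. Srgn was among 44 genes with at least 100 FPKM in every library. Of these, 7 had their highest value in skin, which besides Srgn were B2m, Calm2, Dazap2, Itm2b, Rab7 and Rac1, a set named after its values were seen.

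Serpinb1a had a dip. It read 49.3 FPKM in EMPs and 42.7 in the macrophage-labelled library, 8.31 in liver MCPs and 5.2 in the younger limb MCPs, then 73.6 in the older ones and 374 in skin. Both MCP libraries of E11.5 were thus below the other liver libraries, and the later libraries above them. The lowest value rested on 86 estimated fragments, with a counting interval of 4.16 to 6.42 FPKM, below that of liver MCPs (7.17 to 9.57). Skin exceeded limb MCPs at E11.5 by 71.9-fold as deposited, and by 119.8-fold to 150.3-fold over the 4 other scalings. EMPs and the macrophage-labelled library, next to each other in the order, changed places under median-of-ratios scaling (39.7 against 41.6). Serpinb1c, a close paralog that could share reads with it, read at most 0.17 FPKM in any library, and Serpinb1b was not analysed here.

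**Figure D1:**
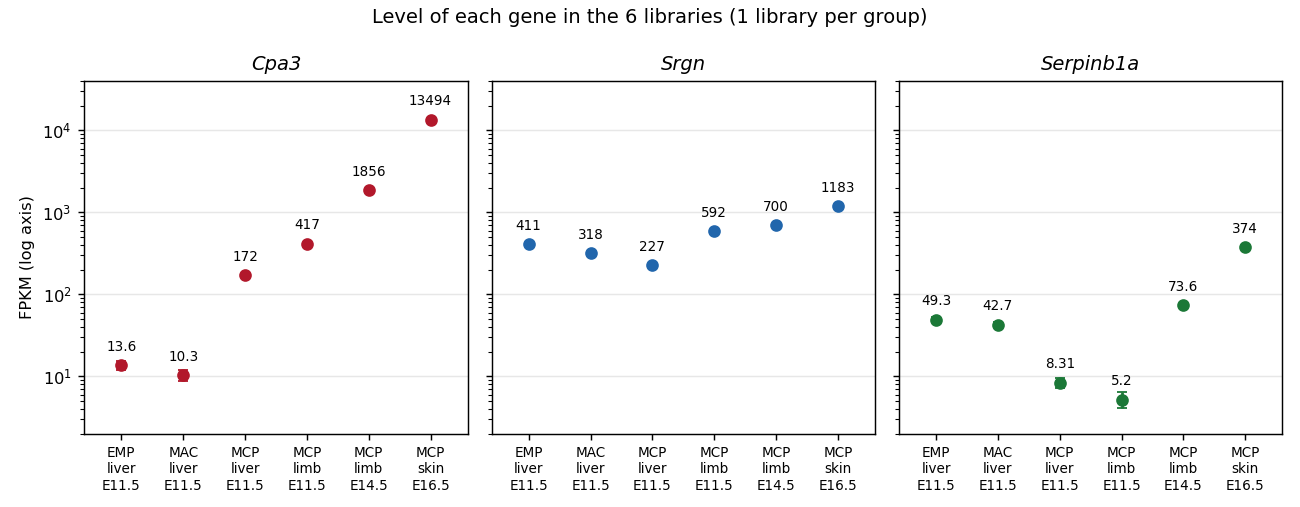
FPKM (log axis) of Cpa3, Srgn and Serpinb1a in the 6 libraries, 1 point per library, with bars for the 95% Poisson interval from estimated fragments (counting error only, mostly smaller than the point). Cpa3 spans 10.3 to 13494, Srgn 227 to 1183, and Serpinb1a is lowest in the MCP libraries of E11.5 at 8.31 and 5.2.

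As a share of the FPKM sum of its library, Cpa3 held 0.00802% in EMPs, 0.00637% in the macrophage-labelled library, 0.112% in liver MCPs, 0.298% and 1.24% in the younger and older limb MCPs, and 16.1% in skin. Srgn held 0.243%, 0.197%, 0.148%, 0.423%, 0.469% and 1.41% in the same libraries, and Serpinb1a 0.0291%, 0.0265%, 0.00542%, 0.00371%, 0.0493% and 0.445%. The 3 genes together took 0.230% to 0.280% in the liver, 0.724% and 1.76% in the limb and 17.9% in skin. With Cpa3 left out of the sum, the skin share of Srgn was 1.68% and that of Serpinb1a 0.530%, still the highest of the 6 libraries for each (0.475% and 0.0499% in limb MCPs at E14.5).

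By FPKM, Srgn exceeded Cpa3 in every E11.5 library, and Cpa3 exceeded Srgn in both later ones. Cpa3 was 0.0330 of Srgn by FPKM in EMPs and 0.0323 in the macrophage-labelled library. The ratio was 0.759 in liver MCPs and 0.704 in the younger limb MCPs, where both genes were higher than in liver MCPs. At E14.5 Cpa3 exceeded Srgn by 2.65-fold and in skin by 11.4-fold. Against the inhibitor gene, Cpa3 was 0.275 of Serpinb1a in EMPs and 0.240 in the macrophage-labelled library, and 20.7-fold, 80.2-fold, 25.2-fold and 36.1-fold above it in liver MCPs, the younger and older limb MCPs and skin. Ratios within a library do not depend on how libraries are scaled to each other. Across the 6 libraries Pearson's r of log2(FPKM + 1) was 0.79 between Cpa3 and Srgn, 0.43 between Cpa3 and Serpinb1a and 0.66 between Srgn and Serpinb1a. Without skin these were 0.58, −0.20 and 0.25. The values of a library share its depth and scaling, and the coefficients only describe these points.

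**Figure D2:**
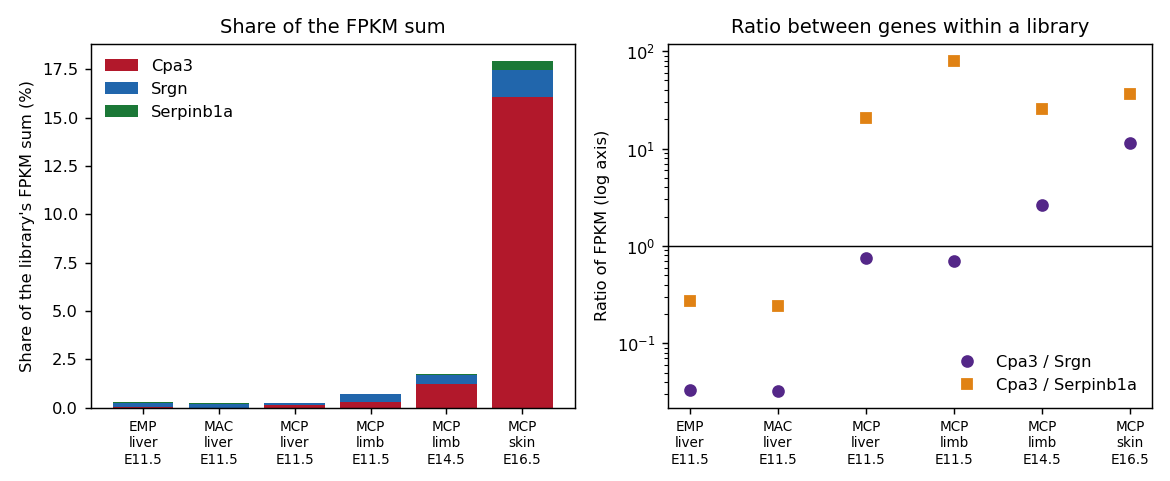
Left, stacked bars of the share of each library's FPKM sum (percent) held by Cpa3, Srgn and Serpinb1a; right, the FPKM ratio (log axis) of Cpa3 to Srgn and to Serpinb1a in each library, with a line at equality. The 3 genes reach 17.9% in skin, and Cpa3 passes Srgn in limb MCPs at E14.5 (2.65) and skin (11.4).

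Liver MCPs were compared with EMPs to see which of these genes mark the mast cell branch. A gene was called higher or lower where log2(FPKM + 1) differed by at least 2, a 4-fold change, with at least 10 FPKM in either library. Cpa3 was 12.7-fold higher in MCPs (log2 difference 3.57), Serpinb1a 5.94-fold lower (−2.43) and Srgn 1.81-fold lower (−0.85), which is not a call. So 1 of the 3 was called higher and 1 lower, where 1.78% of 3369 genes were called higher, 3.09% lower and 4.87% either way. Of those genes, 9 had a difference at least as high as that of Cpa3, itself included. Against the macrophage-labelled library the picture was alike, though the MCP library is shared by both comparisons. Cpa3 was 16.8-fold higher in MCPs (3.94), Serpinb1a 5.14-fold lower (−2.23) and Srgn 1.40-fold lower (−0.48), where 3.72% of 3254 genes were called higher, 5.99% lower and 9.71% either way. The Serpinb1a call ended with a pseudocount of 5 (−1.84). The macrophage-labelled library and EMPs differed in none of the 3 genes by the rule, with differences of −0.37 for Cpa3, −0.37 for Srgn and −0.20 for Serpinb1a, where 2.39% of 3179 genes were called higher, 0.661% lower and 3.05% either way, and the median gene was at −0.29.

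Limb and liver MCPs of E11.5 were set side by side, as they share an age and differ in tissue. Cpa3 was 2.42-fold and Srgn 2.61-fold higher in the limb, on the log2 scale 1.27 and 1.38, and Serpinb1a was 1.60-fold lower (−0.59). None of the 3 met the rule, which 1.18% of 3136 genes met as higher, 2.04% as lower and 3.22% either way. Serpinb1a could not have met it, since it was under 10 FPKM in both libraries. A difference at least as high as that of Srgn was found in 127 of the 3136 genes, and 154 reached that of Cpa3.

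Limb MCPs of E14.5 were set against those of E11.5 for the effect of age in a tissue. Serpinb1a was 14.2-fold higher at E14.5 (3.59) and Cpa3 4.45-fold higher (2.15), and Srgn differed by 1.18-fold (0.24). Called higher were 2 of the 3 genes, against 2.39% of 2970 genes called higher, 1.75% lower and 4.14% either way. Cpa3 passed the threshold narrowly, and its difference was 2.06 to 2.15 over all settings tried.

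Skin and limb MCPs of E14.5 differ in tissue and age at once. Cpa3 was 7.27-fold higher in skin (2.86), Serpinb1a 5.08-fold higher (2.33) and Srgn 1.69-fold higher (0.76). Called higher were again 2 of the 3, against 1.78% of 2759 genes, while 33.4% were called lower and 35.2% either way. The median gene stood at −1.42, so relative to it Cpa3 was at 4.29, Serpinb1a at 3.75 and Srgn at 2.18. The size of these differences depended on how skin was scaled. Under median-of-ratios scaling, where the median gene was at −0.37, Cpa3 was at 4.02, Serpinb1a at 3.48 and Srgn at 1.91.

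Over the whole table, 131 genes of the 4016 with at least 10 FPKM in any library were higher at each of the 3 steps from liver MCPs through both limb libraries to skin, Cpa3 and Srgn among them. Cpa3 was 1 of 9 genes with at least 1 on the log2 scale at every step, with Ankrd44, Creb3l1, Ednra, Fam198b, Gnai1, Gpr65, Hspa13 and Rab19. The calls at both later steps were shared by 6 genes, Cpa3, Serpinb1a, the chymase gene Mcpt4, Gnai1, Pmp22 and A530099J19Rik. Serpinb1a was also called lower in liver MCPs than in EMPs, which Mcpt4, Gnai1, Pmp22 and A530099J19Rik, at 0.05 FPKM or less in EMPs, could not have been. These sets were drawn up after the values were seen.

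**Figure D3:**
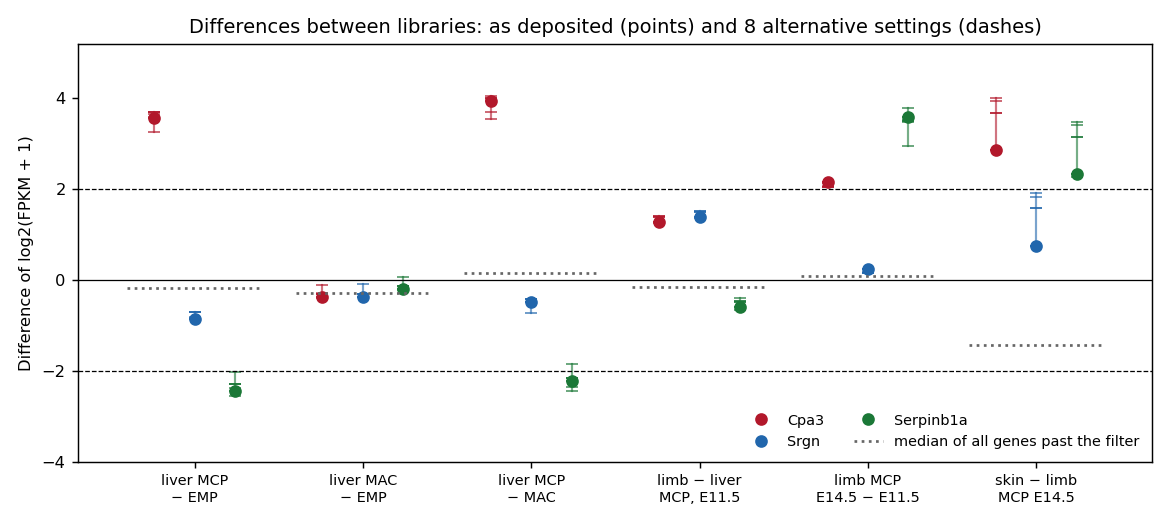
Difference of log2(FPKM + 1) for the 6 comparisons, with points for values as deposited, dashes for 8 alternative settings, dotted lines for the median of all genes past the filter and dashed lines at 2 and −2. Cpa3 and Serpinb1a lie beyond the dashed lines in 4 comparisons each, Srgn in none.

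The genes whose values ran most like those of each of the 3 were ranked by Pearson's r of log2(FPKM + 1) over the 6 libraries among 2338 genes with at least 10 FPKM in any library and a range of at least 2. For Cpa3 these included Fam198b (0.991), Cpb1 (0.988), Stk17b (0.987), C77080 (0.984), Tmem64 (0.981), Spred1 (0.980) and Slc6a4 (0.980). Slc6a4, the serotonin transporter, had the widest span of those named, from listed at 0 in EMPs to 740 in skin. Cpb1, a carboxypeptidase gene of the same family as Cpa3, is also its neighbour, with a gap of 7.27 kb on chromosome 3. It read 0.05 FPKM in EMPs, listed at 0 in the macrophage-labelled library, 0.88 in liver MCPs, 2.79 in younger and 3.73 in older limb MCPs, and 10.4 in skin. Cpb1 thus stood in the same order of libraries at far lower levels. The neighbours farther off did not share it, with Gyg, for glycogenin, at 29.5 to 60.7 and Agtr1b at 0.05 or less.

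For Srgn the closest were Hspa13 (0.959), Slc3a2 (0.936), Lipt2 (0.931), Slc7a8 (0.927), Erg (0.926), Bmpr2 (0.925), Copz2 (0.924) and Ankrd44 (0.923). Slc3a2 and Slc7a8 encode chains of amino acid transporters, and Erg is a transcription factor of blood and vessels. Erg read 20.5 in EMPs, 7.84 in liver MCPs, 13.5 in the macrophage-labelled library, 16.8 in younger and 28.7 in older limb MCPs, and 117 in skin. For Serpinb1a they were Atn1 (0.991), Plau (0.947), Lcp2 (0.915), Sgpl1 (0.911), Cd200r1 (0.899), Reep3 (0.880), Kdelr3 (0.874) and Snap29 (0.864). Atn1, the atrophin gene, followed the dip of Serpinb1a at 5.11 in EMPs, 4.45 in the macrophage-labelled library, 1.56 and 1.33 in the E11.5 MCPs, 8.42 at E14.5 and 15.8 in skin. Plau, urokinase, read 0.28 and 0.44 in the E11.5 MCPs and 13.3 in skin. Without the skin library 3 of the 8 genes for Cpa3, 0 of the 8 for Srgn and 1 of the 8 for Serpinb1a stayed among the closest 8.

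The tryptase and chymase genes Tpsb2, Mcpt4 and Cma1 were under 1 FPKM in all 4 libraries of E11.5, where Cpa3 was at 10.3 to 417. This did not hold for every such gene. Of 15 other granule proteases, 6 were at 1 FPKM or more in limb MCPs at E11.5. These were Ctse (175), Gzmb (56.4), Ctsc (16.7), Mcpt8 (4.09), the tryptase gene Tpsg1 (2.26) and the chymase gene Mcpt1 (1.71). Of 15 other granule proteases, 8 were called higher in limb MCPs at E14.5 than at E11.5 and 2 lower, with 11 past the filter. Over all genes 2.39% were called higher and 1.75% lower. The 8 read 2.26 FPKM or less in the younger library and passed the filter only through the older one. They could thus not have been called lower. The median difference was 4.33 over the 12 at 1 FPKM or more, against 0.05 for all such genes. The tryptase gene Tpsb2 read 0.21 at E11.5 and 605 at E14.5 in the limb, the chymase gene Mcpt4 0.12 and 86.8, and Cma1, another chymase gene, was listed at 0 and then 31.9. Cpa3 at E11.5 was already at 417 in the same limb library. In skin against limb MCPs at E14.5, Mcpt4 was called higher (412). Of the 11 past the filter 4 were called lower, Mcpt1, Mcpt2, Gzmb and Prss34, beside 33.4% of all genes, which is near the background. With a pseudocount of 5 Mcpt2 was the only lower call, and under median-of-ratios scaling only Mcpt1 and Gzmb were. At the liver stage Gzmb, granzyme B, was the list's only higher call in MCPs against EMPs, at 21.5 and listed at 0. Ctsg, cathepsin G, was its only lower call, at 2.35 and 86.1. Past the filter were 4 of the list, where 1.78% of all genes were called higher and 3.09% lower. Mast cell proteases of the Mcpt and Tps families share sequence, so single values are uncertain.

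Enzymes that build and sulfate the chains on serglycin were described as lists. The linker and chain synthesis list (17 genes) had no call in the first 5 comparisons, with only 2 or 3 genes past the filter in each. In skin 2 of 3 past the filter were called lower, beside 33.4% of all genes. These were Ext2 (listed at 0 against 17.2) and Chsy1 (2.16 against 14.7). The Chsy1 call ended under each of the 4 other scalings. The median difference of the list in skin was −1.09, beside −1.11 for all genes at 1 FPKM or more. The sulfation and epimerisation list (27 genes) had 1 higher call of 5 past the filter in limb against liver MCPs (Hs3st1) and 2 of 6 in older against younger limb MCPs (Ndst2 and Hs3st1), where 1.18% and 2.39% of all genes were called higher. It had no lower call there, and medians of 0.82 and 1.08 beside −0.09 and 0.05 for all genes. With a pseudocount of 5 the counts were 0 and 1, and the Ndst2 call also ended under each of the 4 other scalings. In liver MCPs Chst12 was called lower against both EMPs and the macrophage-labelled library, and Papss2 higher against the latter. Past the filter were 2 genes of the list in each comparison. Over all genes 3.09% and 5.99% were called lower, and 3.72% higher against the macrophage-labelled library. Both Chst12 calls ended with a pseudocount of 5, and the Papss2 call did not. A filter of 30 FPKM left no gene of the list in these comparisons. Ndst2, the N-deacetylase and N-sulfotransferase of mast cell heparin, read 4.09 in EMPs, 4.72 in the macrophage-labelled library, 8.51 in liver MCPs, 26.9 in younger and 112 in older limb MCPs, and 77.9 in skin. Hs3st1, a 3-O-sulfotransferase, was listed at 0 in EMPs and read 2.11 in liver MCPs, 18.8 in younger and 106 in older limb MCPs, and 27.8 in skin. Limb and skin thus exceeded every liver library for both genes. Papss2, which makes the sulfate donor, read 37.8 and 83.7 in the limb libraries and 21.0 in liver MCPs, and was listed at 0 in skin. In skin against limb MCPs at E14.5, Hs3st3a1 was called higher (13.3 against 0.38), a call that ended with a pseudocount of 5. Ndst1 (1.41 against 20.9) and Papss2 were called lower, 2 of 7 past the filter beside 33.4% of all genes. Csgalnact2 and Chst12, which start and sulfate chondroitin chains, were highest in the macrophage-labelled library at 15.8 and 20.9.

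**Figure D4:**
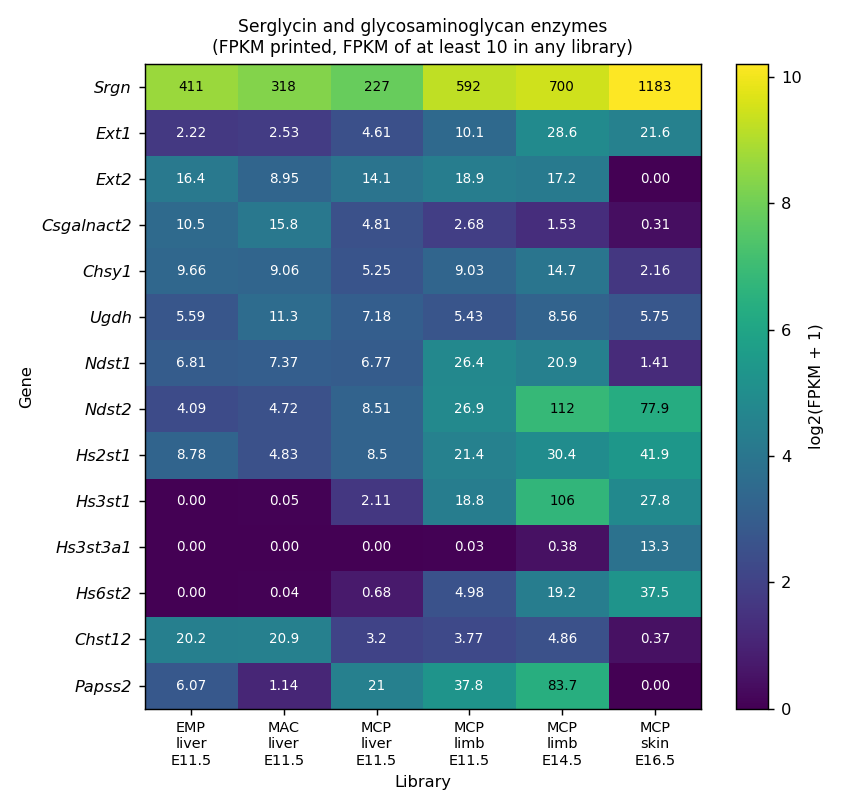
FPKM (printed) and log2(FPKM + 1) (colour) of Srgn and of the chain synthesis and sulfation genes with at least 10 FPKM in any library (rows) in the 6 libraries (columns). Ndst2 and Hs3st1 peak in limb MCPs at E14.5 at 112 and 106, and Chst12 is near 20 in EMPs (20.2) and the macrophage-labelled library (20.9).

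Serglycin far exceeded the other proteoglycan cores. Of 19 in the list, the highest value in any library was 29.9 for Cd44, a hyaluronan receptor, in the macrophage-labelled library, where Srgn read 318. Glypican genes gave the only calls of this list. Of the 19, 4 passed the filter in liver MCPs against EMPs and 4 against the macrophage-labelled library. Over all genes 1.78% and 3.72% were called higher there, and 3.09% and 5.99% lower. Gpc4 was called higher in liver MCPs than in EMPs (13.2 against 2.34) and Gpc1 lower (0.14 against 11.7). Both were called the same way against the macrophage-labelled library. A pseudocount of 5 ended every one of these calls, and a filter of 30 FPKM left no gene of the list in these comparisons. Gpc3, another glypican gene, was not called and read 16.1 in liver MCPs, 20.1 in the younger limb MCPs, 6.38 in EMPs and 0.14 in skin. The list had no call in the 3 later comparisons, where only 3, 2 and 0 of the 19 passed the filter. In skin against limb MCPs at E14.5 no call was thus possible. Dcn, Lum and Bgn, cores of connective tissue, reached 3.42 to 6.99 in limb MCPs at E14.5, where 9 of 10 fibroblast markers were at 1 FPKM or more and summed to 84.3, against 0.59 to 13.6 in the other libraries. The part of other cells in these values was not tested.

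In a list of 18 genes, other carboxypeptidases and latexin, Cpb1 (10.4) and Ctsa, the lysosomal protective protein (21.7 in EMPs), were the only carboxypeptidases besides Cpd (11.9) to reach 10 FPKM in any library. Lxn, for latexin, a carboxypeptidase A inhibitor, was the list's only call as deposited, with at most 3 of the 18 past the filter in any comparison. Scaling changed this in skin against limb MCPs at E14.5. Under TPM Cpb1 was called higher there, and under median-of-ratios scaling Cpb1 and Lxn were, beside 4.53% and 6.52% of all genes. Lxn read 5.97 to 7.52 in the 4 libraries of E11.5, 47.8 in limb MCPs at E14.5 and 105 in skin. At E14.5 it was called higher than at E11.5 in the limb, 1 of 2 past the filter beside 2.39% of all genes. It stood with Cpa3 at the late end, without the E11.5 steps of Cpa3. Ctse and Ctsc, proteases linked to the processing of granule enzymes, differed from each other. Ctse read 66.5 in EMPs, 167 to 175 in the other E11.5 libraries, 14.4 at E14.5 and 6.02 in skin, lowest at the late end. Ctsc was highest in the macrophage-labelled library at 66.0 and read 8.14 in liver MCPs, 16.7 and 22.9 in the younger and older limb MCPs and 17.2 in skin.

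Among 17 other serpins and cystatins, the stefin genes had the calls. Stfa1 was called lower in liver MCPs than in EMPs, and Stfa1, Stfa2 and Stfa3 lower than in the macrophage-labelled library, as Serpinb1a was in both comparisons. These were 1 of 4 and 3 of 6 past the filter, where 3.09% and 5.99% of all genes were called lower. In the 3 later comparisons none was called, with only 3 or 4 of the 17 past the filter. In skin, Serpinb1a at 374 exceeded all 17, the highest being Cst3, for cystatin C, at 27.85. Cst3 was highest in the macrophage-labelled library at 149. The Stfa genes share sequence and were highest in the macrophage-labelled library, with Stfa1 at 748.

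The neutrophil serine proteases that Serpinb1a inhibits and the markers of neutrophils were set beside it. Elane, Prtn3 and Ctsg summed to 1635 FPKM in EMPs, 942 in the macrophage-labelled library, 31.9 in liver MCPs, 22.4 and 0.37 in the younger and older limb MCPs, and 7.17 in skin. All 3 were called lower in liver MCPs than in EMPs, where 3.09% of all genes were, and so was Serpinb1a. The 18 neutrophil markers summed to 10550 in EMPs and 8389 in the macrophage-labelled library, against 1061 in liver MCPs and 491 in limb MCPs at E11.5. Their part in the Serpinb1a and Srgn values of these libraries was not tested. In the later libraries the same markers were near 0, with sums of 2.45 at E14.5 and 8.30 in skin, 10 and 13 of 18 listed at 0, and 6.93 for Ctsg as the highest. Serpinb1a read 73.6 and 374 there. The chymase genes Cma1 (31.9 and 35.4) and Mcpt4 (86.8 and 412) were also high there, and both were under 1 FPKM in every E11.5 library. Mcpt1 and Mcpt2, also chymase genes, read 11.6 and 44.5 at E14.5 but 0.11 and 4.6 in skin. The 16 mast cell markers summed to 184 in EMPs, 195 in the macrophage-labelled library, 285 in liver MCPs, 501 in the younger and 2183 in the older limb MCPs and 3005 in skin. Fcer1g and Hdc were the highest of the 16 in EMPs (68.3 and 60.5) and in the macrophage-labelled library (138 and 43.6). They read 74.1 and 63.7 in liver MCPs. In the same 3 libraries the label checks Kit and Ms4a2 read 41.7, 9.96 and 95.3, and 1.8, 0.62 and 23.8. Not every gene of that list followed the sum into skin. Gata2, a transcription factor gene, read 66.2 and 142 in the younger and older limb MCPs and was listed at 0 in skin. As deposited, Kit (239 against 284), Tpsab1 (111 against 195), Il1rl1 (21.1 against 28.2) and Mitf (2.34 against 8.94) were also lower in skin than in the older limb MCPs. The rest of the list was higher in skin. The 9 eosinophil markers summed to 10026 in the macrophage-labelled library and to 2.60 to 270 elsewhere. Keratinocyte markers were below 1 FPKM in every library, skin included.

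**Figure D5:**
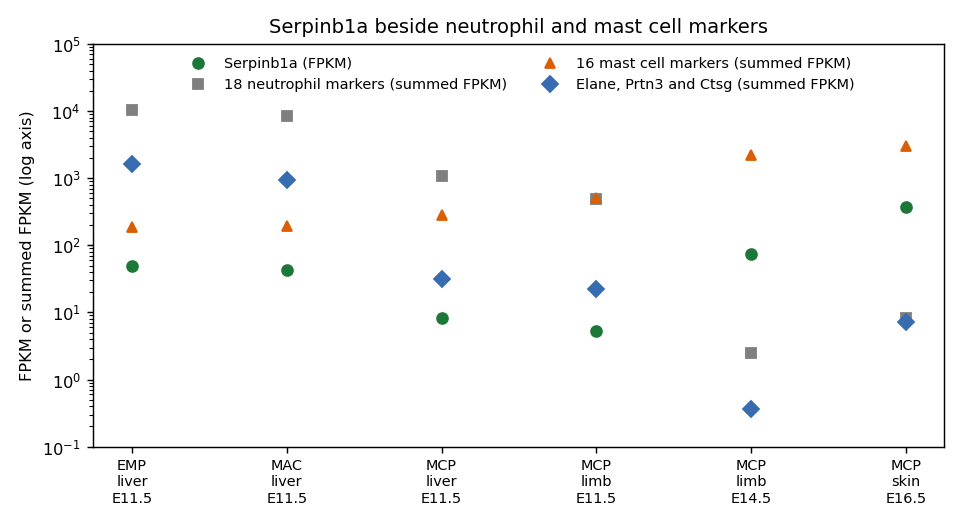
FPKM of Serpinb1a and summed FPKM of 18 neutrophil markers, of 16 mast cell markers and of Elane, Prtn3 and Ctsg (log axis) in the 6 libraries, 1 value each. Serpinb1a is at 73.6 and 374 in the later libraries, where the neutrophil markers sum to 2.45 and 8.30.

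Genes for amine storage and granule traffic gave a last comparison. Of 21, 1 was called higher in limb than in liver MCPs at E11.5, the vesicular amine transporter gene Slc18a2 (20.4 against 1.59), of 11 past the filter and beside 1.18% of all genes. That call ended with a pseudocount of 5. At E14.5 against E11.5 in the limb 4 of 13 past the filter were called higher and none lower, where 2.39% of all genes were called higher and 1.75% lower. The 4 were Hdc, the histamine-forming enzyme (564.5 against 114), Tph1, Tpsb2 and Rab27b, a secretion GTPase (35.7 against 7.8). With a pseudocount of 5 only Hdc and Tpsb2 were called, and the Rab27b call also ended under each of the 4 other scalings. In skin none of the 13 past the filter was called higher and 2 were called lower, where 33.4% of all genes were, Vamp8 (2.01 against 18.75) and Stxbp2 (3.34 against 31.2). Under median-of-ratios scaling none was called lower, and Tph1, Snap23 and Lamp2 were called higher. Hdc, at 564.5 and 579 in the later libraries, did not share the skin difference of Cpa3.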

How the data were processed

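Bulk RNA-seq libraries of sorted embryonic mouse cells were used, 6 in all and 1 per group, with groups taken from the labels. The authors deposited 1 table of FPKM values with 2 decimals. The submitters' processing notes list Bowtie2, RSEM and the build mm10, with no versions. As RSEM shares fragments among similar genes, values of close paralogs are uncertain. Of 17913 rows, 4 with a repeated symbol were dropped. Fragments were estimated from the steps of the FPKM values of 1409 single-transcript genes of 600 to 2500 bases in GENCODE M21. At the depth kept, the best of those tried, 70.4% to 77.2% of values lay no more than 0.2 from a whole number. By chance 40% would do so at a fixed depth. Simulated libraries were returned within 2% in 12 of 12 cases. They were made with the same annotated lengths, so they cannot test those lengths, and no effective-length correction was made. This estimate, the motifs and the sets of genes with like steps were chosen after seeing the data. Exact Poisson intervals (95%) were drawn from these estimates and cover counting error only.

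Differences are of log2(FPKM + 1), called at 2 or more with at least 10 FPKM in either library. Fold values are FPKM ratios without the pseudocount. With 1 library per group no test was run. The genes and the 19 gene lists (268 entries) were chosen with earlier results of these data known. Named genes were the 3, the 8 most alike each, label markers, and in each list up to 4 members with the highest FPKM and up to 2 per comparison with the largest calls; other genes were named after their values were seen. Likeness left out predicted, ribosomal protein, histone and date-like symbols. A gene among those most alike Cpa3 is not reported here. Alternatives were pseudocounts of 0.1 and 5, no filter, a filter of 30 FPKM, TPM, median-of-ratios factors, removal of erythroid markers, and sums without Cpa3 and granule proteases. Python 3.11.15 and pandas 2.3.3 were used.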

Additional observations from a re-analysis of the deposited data

How the results depend on the processing

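Over the 8 alternatives, 142 of 144 recomputed differences of Cpa3, Srgn and Serpinb1a kept their direction and their side of the 4-fold rule. The 2 filter settings leave a difference as it is and could change only a call. Removing erythroid markers nearly repeated TPM, with Cpa3 in liver MCPs at 160.9 against 160.5. The exceptions were Serpinb1a in liver MCPs against the macrophage-labelled library with a pseudocount of 5 (−1.84, no longer called), and Serpinb1a in the macrophage-labelled library against EMPs under median-of-ratios scaling, at 0.066 where it was −0.20. That scaling kept 4 of 6 places in the order of libraries by Serpinb1a, and 8 of 9 recomputed orders were kept whole. Of 768 recomputed list counts, 66 moved, by over 1.5 times or to or from 0. Counts of 0 that stayed at 0 were taken as not moved. In skin against limb MCPs at E14.5 the median of all genes went from −1.42 to −0.68 under TPM and without erythroid markers, −0.37 under median-of-ratios and −0.45 without Cpa3 and granule proteases in the sums. Under median-of-ratios the median also went from −0.29 to −0.02 (macrophage-labelled against EMPs), 0.15 to −0.07 (liver MCPs against macrophage-labelled) and −0.16 to −0.02 (limb against liver MCPs). The lower share of skin calls went from 94.95% to 80.9%, 80.9%, 68.8% and 72.1%, and the higher calls from 49 to 125, 125, 180 and 165. That share went from 61.7% to 72.3% (liver MCPs against the macrophage-labelled library, median-of-ratios) and from 63.4% to 52.6% (limb against liver MCPs, median-of-ratios and without erythroid markers). Higher and lower calls over all genes ranged over pseudocounts and filters from 23 to 132 and 42 to 162 (liver MCPs against EMPs, from 60 and 104), 39 to 124 and 5 to 63 (macrophage-labelled against EMPs, from 76 and 21), 38 to 252 and 107 to 312 (liver MCPs against macrophage-labelled, from 121 and 195), 10 to 77 and 16 to 200 (limb against liver, from 37 and 64), 43 to 172 and 16 to 127 (limb by age, from 71 and 52), and 26 to 79 and 352 to 1725 (skin against limb, from 49 and 922). Of the 12 recomputed sets of the 8 genes most alike, 6 shared fewer than 6 genes with the set named. No paired analysis was possible because every group held 1 library. Depth limits the lowest value, Serpinb1a at 86 estimated fragments.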
